A study of Homo sapiens with 15 samples.

Results

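The genes described here are 34 genes of the sterol and fatty acid pathways. They were chosen by name from the SREBP (sterol regulatory element-binding protein) and LXR (liver X receptor) programmes, with earlier results of these data known. All 34 were matched by Ensembl gene identifier in the table of 58219 genes, and all 34 passed the filter on low counts that left 17599 genes for testing. They comprise 7 genes of the mevalonate pathway, 11 of the branch from squalene to cholesterol, 5 of sterol sensing and transport, 8 of fatty acid synthesis and desaturation, and 3 targets of LXR.

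Expression was measured by RNA sequencing in BEAS-2B cells, an immortalized line of human bronchial epithelium that was grown in serum-free medium, in 5 conditions with 3 experiments each. In the first protocol, cells received vehicle (Control 24 h), 1 µg/cm2 of PM2.5 or 30 µg/cm2 of PM2.5 once and were collected after 24 h. In the second, cells received vehicle (Control 7 d) or 1 µg/cm2 of PM2.5 daily and were collected on day 7. The PM2.5, airborne particles of fine size, had been collected in Beijing and extracted from filters in water, and all cells were of 1 line, so the experiments are repeats in that line and not in different donors. Cells of the second protocol were also plated at a lower density and washed between exposures, so time, density and handling cannot be told apart when the controls of both protocols are compared.

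Cholesterol is built from acetyl-CoA through mevalonate, squalene and lanosterol. When sterols in the endoplasmic reticulum are low, SREBP precursors are released from their INSIG anchors, cut in the Golgi and carried to the nucleus, where SREBP2 mainly drives the cholesterol genes and SREBP1 mainly the fatty acid genes. Oxysterols, which are oxidised cholesterol, keep SREBP anchored and activate LXR, which raises the export pumps ABCA1 and ABCG1. Bronchial epithelial cells use both products in their membranes.

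SREBP binds its element together with the factor NF-Y, whose site is the CCAAT box, so the promoters of the genes were searched for both. RefSeq (GRCh38.p14) windows running from 250 bases before to 50 bases after the start were at hand for 29 of the 34 genes. ACAT2, FDFT1, SQLE, FASN and ABCG1 had no window and were not searched. The letters TCACNCCAC, the core of the sterol regulatory element with 1 free base, were found on either strand in 1 of these genes, SREBF2, which is 3.45% of them against 1.39% of all 27305 genes in the same table. CCAAT was found on either strand in 22 of the 29 genes, or 75.9%, against 39.7% of all genes. The 250 bases before the start are shown for SREBF2, the single gene with both matches, for MVK and NSDHL, with 5 CCAAT matches each, and for LSS, which had the largest fall after 30 µg/cm2 of PM2.5. Capitals mark matches to either motif on either strand, so that ATTGG is CCAAT on the opposite strand. The windows lie at chr22:41832855-41833104, plus strand, for SREBF2, at chr12:109573544-109573793, plus strand, for MVK, at chrX:152830813-152831062, plus strand, for NSDHL, and at chr21:46228775-46229024, minus strand, for LSS. The matches describe the letters only, and binding was not measured.
SREBF2: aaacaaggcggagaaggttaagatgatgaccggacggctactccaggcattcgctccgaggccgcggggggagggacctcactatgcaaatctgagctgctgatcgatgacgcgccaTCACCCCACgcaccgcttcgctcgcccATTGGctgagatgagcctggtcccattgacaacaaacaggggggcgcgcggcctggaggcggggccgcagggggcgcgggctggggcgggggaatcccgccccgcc
MVK: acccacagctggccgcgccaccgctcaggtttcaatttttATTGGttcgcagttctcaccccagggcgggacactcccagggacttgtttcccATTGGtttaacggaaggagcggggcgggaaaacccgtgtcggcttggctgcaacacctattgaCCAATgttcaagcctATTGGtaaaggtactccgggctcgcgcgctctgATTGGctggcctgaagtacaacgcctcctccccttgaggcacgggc
NSDHL: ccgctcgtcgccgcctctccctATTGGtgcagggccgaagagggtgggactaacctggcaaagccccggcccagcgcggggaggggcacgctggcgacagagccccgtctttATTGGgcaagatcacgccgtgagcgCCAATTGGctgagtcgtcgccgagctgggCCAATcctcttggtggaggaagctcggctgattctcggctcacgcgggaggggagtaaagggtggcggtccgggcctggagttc
LSS: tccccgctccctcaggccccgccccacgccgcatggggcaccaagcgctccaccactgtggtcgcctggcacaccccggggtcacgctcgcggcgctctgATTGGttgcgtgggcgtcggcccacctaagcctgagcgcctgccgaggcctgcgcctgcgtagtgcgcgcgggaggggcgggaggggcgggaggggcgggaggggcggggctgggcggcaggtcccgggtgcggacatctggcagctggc

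The libraries held 21460981 to 34724765 counts on genes, and 3 counts, taken as the floor, equal 0.0864 to 0.140 CPM (counts per 1e6 counts of the library). This floor covers counting error only. The 3 libraries of 24-h experiment 2 stood apart. Their counts differed from those of the same condition by a chi-square of 67.8 to 165 per degree of freedom, compared with 4.16 to 16.8 between 24-h experiments 1 and 3. Mitochondrial genes took 4.13% to 4.40% of their counts and 2.76% to 3.42% in the other 24-h libraries. Counts of genes called that involve 24-h libraries, and the values of many single genes, are therefore also given without experiment 2. Those fits keep only experiments 1 and 3 of the 24-h conditions. The experiment left out is the one that stood apart in these same counts. The p-values of those fits therefore rest on the 24-h libraries that differed least, and are not separate support. In the 7-d protocol, the exposed library of experiment 3 differed from the other exposed libraries by a chi-square of 18.7 and 23.9 per degree of freedom. The exposed libraries of experiments 1 and 2 differed by 4.50, and the 7-d controls by 4.09 to 4.81. All 10 epithelial markers searched were detected in every library, and their summed level was 3988 to 4425 CPM in the 24-h controls, 1772 to 2890 CPM after 30 µg/cm2, 3544 to 4299 CPM in the 7-d controls and 2538 to 2745 CPM after daily exposure. The leukocyte markers PTPRC and CD3E, the hepatocyte marker TTR and the adipocyte marker ADIPOQ were at or near 0. So were the 3 endothelial markers, which summed to at most 0.345 CPM. The hepatocyte marker ALB ran from 0.0354 to 0.381 CPM and was above the floor in every library at 30 µg/cm2. The other adipocyte marker, PLIN1, was above the floor in every library, at 0.692 to 2.31 CPM. The other hepatocyte marker, APOA1, reached at most 0.131 CPM. The 5 leukocyte markers summed to 11.2 to 13.6 CPM in the 24-h controls and 4.60 to 18.1 CPM after 30 µg/cm2, which came mainly from CD14 and ITGAM, and the 4 fibroblast markers summed to 78.8 to 120.4 CPM and 52.0 to 96.3 CPM in the same groups. In RNA from whole cultures, fewer cells of a kind and less RNA per cell cannot be told apart. Exons of HMGCS1, MVK, IDI1, FDPS, FDFT1, LSS, STARD4, SREBF1, SREBF2 and ACLY overlap genes on the other strand over at most 18.6% of their bases. For LSS the larger overlap is 6.19%. TM7SF2 shares 0.469% of its exon bases with VPS51 on the same strand. The counts of these genes are uncertain to that extent.

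The abundance of the genes differed widely. Per kilobase of exon in the 24-h controls, SCD, the desaturase that makes oleate, was highest at 271 ± 81.6 CPM per kb (SD, n = 3), followed by FASN, the fatty acid synthase, at 152 ± 45.0. The spread of these neighbours overlapped. INSIG1, the sterol-responsive anchor, stood at 120.3 ± 4.42 CPM per kb, more than the other anchor INSIG2 at 10.4 ± 0.861. SREBF2, which encodes SREBP2, stood at 53.5 ± 1.73 and SREBF1, which encodes SREBP1, at 18.6 ± 1.31 CPM per kb. The lowest were the LXR targets ABCA1 at 0.621 ± 0.133 and ABCG1 at 0.238 ± 0.0531 CPM per kb. All lengths are those in the deposited table.

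**Figure D1:**
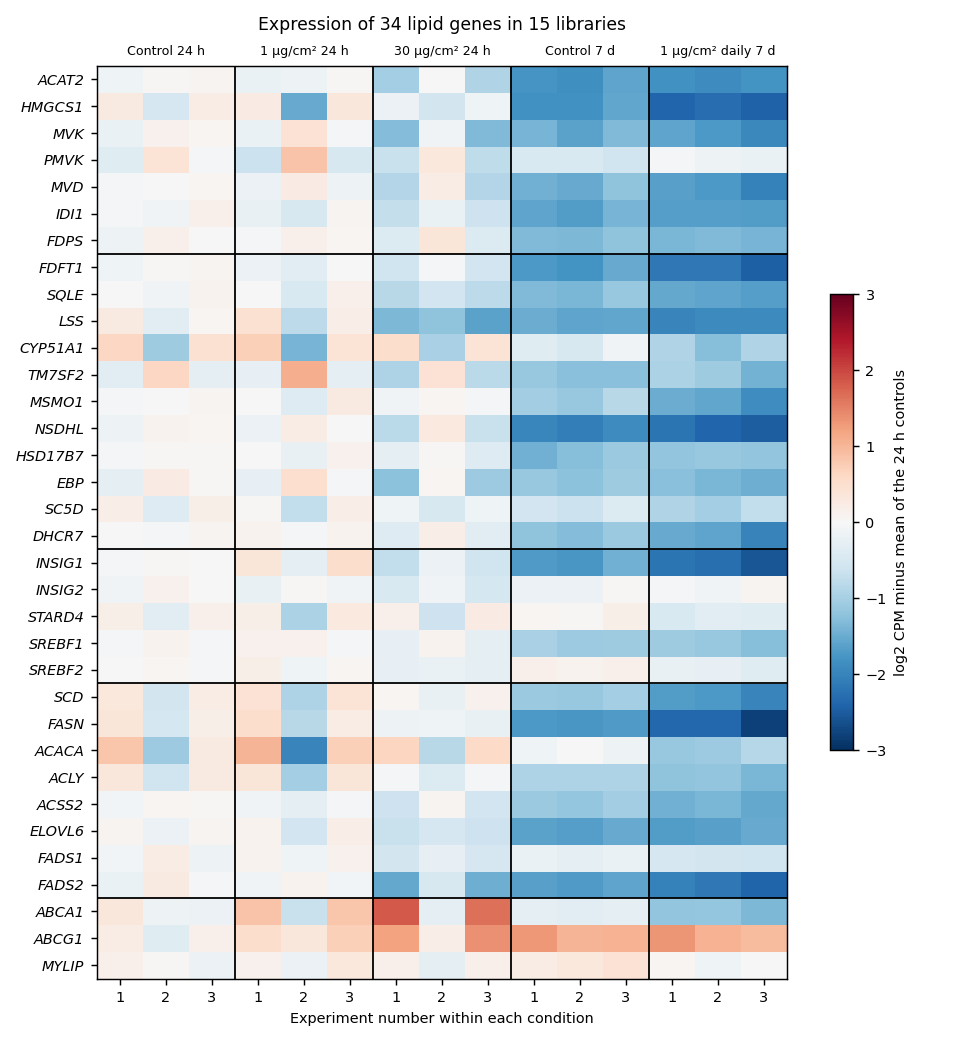
Expression of the 34 genes in the 15 libraries, as log2 CPM minus the mean of the 24-h controls (colour, from -3 to 3), with genes in rows by role and the 3 experiments of each condition in columns. Most genes are lower in all 7-d libraries, PM2.5 or not, and experiment 2 of the 24-h conditions departs from experiments 1 and 3 for genes such as ACACA, TM7SF2 and ABCA1.

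The largest difference among the conditions lay between the untreated cultures. In the 7-d controls, 23 of the 34 genes were lower and 1 was higher than in the 24-h controls (edgeR quasi-likelihood test, with an adjusted p-value by Benjamini-Hochberg under 0.05 and a log2 fold-change of 0.6 or more in either direction). Of all 17599 genes tested, 21.9% were called in this comparison, 10.8% as lower and 11.1% as higher. The median log2 fold-change, of the 7-d relative to the 24-h controls here and wherever the controls are compared, was -1.19 for the 34 genes and 0.02 for all genes. The fall covered 6 of 7 mevalonate genes, 9 of 11 genes of the squalene to cholesterol branch, 6 of 8 fatty acid genes and 2 of 5 sensing genes, and none of the 3 LXR targets. The 9 pairs of 7-d and 24-h controls were all lower for 27 genes (background 24.7%) and all higher for 3 (background 27.6%). Without 24-h experiment 2, 27 genes were called, against a background of 31.0%, which were the 24 genes and CYP51A1, SC5D and ACACA. The largest shift was that of ACACA, from -0.30 to -0.70 (adjusted p = 0.000293), and STARD4 alone changed sign, from 0.07 to -0.10. DESeq2 called 24 (background 24.1%). The 10 genes not called lay between -0.56 for SC5D and 0.33 for MYLIP, with -0.54 for PMVK, -0.49 for CYP51A1, -0.34 for ABCA1, -0.30 for ACACA, -0.23 for FADS1, -0.11 for INSIG2, 0.07 for STARD4 and 0.14 for SREBF2. Of the 24 calls, 2 were lost when single control libraries were left out, those of TM7SF2 and ACLY. Before adjustment, 25 genes had a p-value under 0.05 (background 40.3%).

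After a single exposure to 30 µg/cm2 of PM2.5, LSS, SQLE, FADS2 and ELOVL6 were lower than in the 24-h controls and ABCG1 was higher, which is 5 genes or 14.7% of the genes against 8.07% of all genes tested (4.24% lower and 3.82% higher). The median log2 fold-change was -0.31 compared with 0.03 for all genes, and 30 of the 34 estimates were below 0 (background 46.9%). Before adjustment, 15 genes had a p-value under 0.05 (background 23.6%). All 9 pairs of libraries were lower for 9 genes, against 11.1% of all genes, and higher for none, against 11.7%. The count of calls depended on experiment 2. Without it, 13 genes were called, 11 lower and 2 higher (background 19.1%, 9.95% lower and 9.16% higher). The experiment number was also fitted as a block, which compares cells of the same number. With this block 8 were called, 6 lower and 2 higher (background 15.2%, 7.87% lower and 7.36% higher). DESeq2 called 7 (background 10.4%). Leaving out 1 library gave 14 calls without that of experiment 2 at 30 µg/cm2, against 14.96% of all genes. It gave 2 without that of experiment 1 (background 4.42%) or 3 (background 4.48%) at this dose, and 3 without the control of experiment 1 (background 6.65%) or 3 (background 6.22%). The summed level of the epithelial markers was lower over the same comparison, as given above, and its part in the result was not tested. Exposed and control libraries overlapped for KRT7, KRT17, KRT18 and EPCAM.

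Single exposure to 1 µg/cm2 left no gene past the threshold. Of the 34 genes 0 were called by edgeR and 0 by DESeq2, and 0 had an unadjusted p-value under 0.05, against a background of 0.0625% called by edgeR, 0.222% by DESeq2 and 3.03% with an unadjusted p-value under 0.05. Estimates ran from -0.20 for IDI1 to 0.54 for ABCG1, with a median of 0.02, 16 below 0 (background 47.1%) and 18 above it. The SEs ran from 0.104 to 0.587, and a missed threshold does not show that a gene did not change. Without experiment 2, 1 gene, ABCA1, was called (background 2.11%), and with the block 0 were (background 0.420%). Without that experiment 13 of the 34 estimates changed sign, that of PMVK moving most, from 0.04 to -0.35.

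After daily exposure to 1 µg/cm2, most estimates were below 0, but none passed the threshold in the fit of all libraries. By edgeR, 0 of the 34 were called (background 0.227%) and 12 had an unadjusted p-value under 0.05, all lower (background 11.9%). The median log2 fold-change was -0.36 compared with 0.01 for all genes, and 30 estimates were below 0 (background 48.9%). All 9 pairs of libraries were lower for 23 genes (background 21.6%) and higher for 1 gene, PMVK (background 21.3%). With the experiment number as a block, 6 genes were called, all lower: CYP51A1, MSMO1, INSIG1, SCD, FASN and ACACA (background 4.39%, 2.79% lower). DESeq2 called MSMO1 and INSIG1 (background 1.42%). A fit of the 6 libraries compared, without those of the 24-h protocol, called 8 (background 6.23%). The summed level of the epithelial markers was also lower, as given above, and its part was not tested. Not every marker was lower. EPCAM was at 99.2, 90.4 and 72.8 CPM after daily exposure and 86.8, 76.6 and 79.2 CPM in the 7-d controls. Libraries of KRT14 and KRT17 also overlapped.

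**Figure D2:**
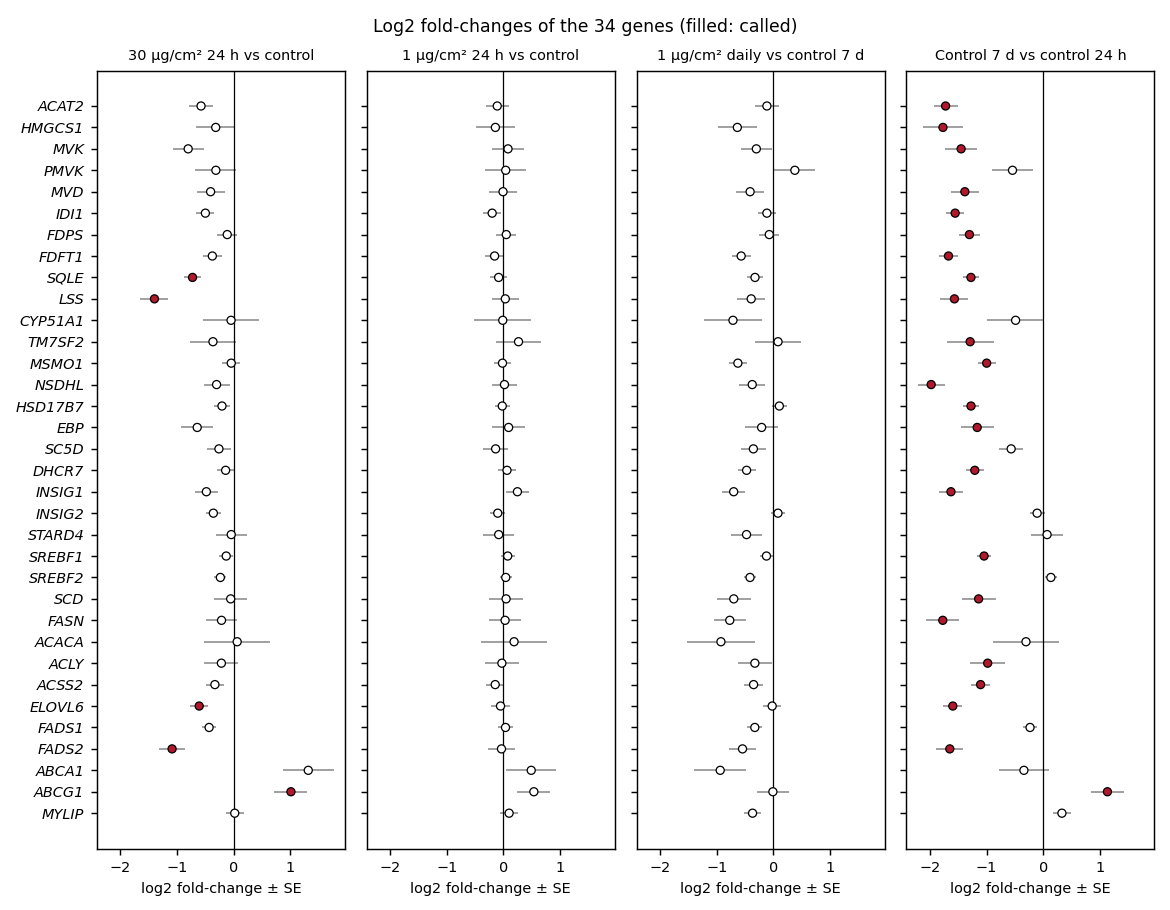
Log2 fold-changes of the 34 genes (points, with SE as bars) in 4 comparisons, with genes in rows by role, from edgeR's quasi-likelihood fit of all 15 libraries. Filled points passed both thresholds, 0.05 for the adjusted p-value and 0.6 for the log2 fold-change in either direction, which are 5, 0, 0 and 24 genes from left to right.

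The mevalonate genes turn acetyl-CoA into farnesyl diphosphate. ACAT2, the cytosolic thiolase that starts the route, was measured at 357, 396 and 413 CPM in the 24-h controls, 335, 347 and 397 after 1 µg/cm2 and 191, 385 and 206 after 30 µg/cm2. It was at 115, 109 and 129.6 CPM in the 7-d controls and 111, 105 and 111 after daily exposure. The 7-d controls lay below every 24-h control, with a log2 fold-change of -1.72 (adjusted p = 8.23e-05, SE 0.213). After 30 µg/cm2 the libraries of experiments 1 and 3 were lower than all controls and that of experiment 2 was not, which gave -0.58 (adjusted p = 0.101, SE 0.208) over all libraries, -0.62 (adjusted p = 0.0158) with the experiment block and -0.97 (adjusted p = 2.36e-06) without experiment 2. Exons of ACAT2 overlap those of 2 genes on the other strand over 43.0% and 9.23% of its exon bases, and because the strand used in counting is not given in the sources used here, its counts are uncertain.

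HMGCS1, the synthase that makes the precursor of mevalonate, was at 577, 339.5 and 559 CPM in the 24-h controls, 565, 168 and 602 after 1 µg/cm2 and 422, 325 and 438 after 30 µg/cm2. In the second protocol it was at 135, 135 and 163 CPM in the 7-d controls and 91.7, 97.7 and 89.1 after daily exposure. It was lower in the 7-d than in the 24-h controls, with a log2 fold-change of -1.77 (adjusted p = 0.00233, SE 0.356). All libraries of daily exposure lay below the 7-d controls, with a log2 fold-change of -0.64 (adjusted p = 0.507, SE 0.347), not past the threshold. At 30 µg/cm2 the log2 fold-change was -0.32 (adjusted p = 0.646, SE 0.345), and -0.42 (adjusted p = 0.00243) without experiment 2.

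MVK, mevalonate kinase, was at 87.6, 110.0 and 103 CPM in the 24-h controls, 87.4, 135 and 95.9 after 1 µg/cm2 and 40.2, 92.5 and 39.7 after 30 µg/cm2. Its values in the second protocol were 37.9, 32.9 and 39.6 CPM in the 7-d controls and 33.1, 30.2 and 26.2 after daily exposure. It was lower in the 7-d controls, with a log2 fold-change of -1.45 (adjusted p = 0.00184, SE 0.280). After 30 µg/cm2 it was below all controls in experiments 1 and 3 and among the controls in experiment 2, which gave -0.80 (adjusted p = 0.0852, SE 0.276) over all libraries, -0.91 (adjusted p = 0.00155) with the block and -1.27 (adjusted p = 4.67e-07) without experiment 2.

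MVD, the decarboxylase that yields isopentenyl diphosphate, was at 110.5, 112 and 118 CPM in the 24-h controls, 101, 135 and 103 after 1 µg/cm2 and 61.4, 133 and 62.0 after 30 µg/cm2. It was at 42.0, 39.4 and 49.1 CPM in the 7-d controls and 36.4, 34.2 and 27.5 after daily exposure, with no overlap between the controls of both protocols and a log2 fold-change of -1.38 (adjusted p = 0.00128, SE 0.253). After 30 µg/cm2, experiment 2 was above all controls and the other experiments below them, with -0.41 over all libraries and -0.90 (adjusted p = 1.69e-05) without experiment 2. IDI1, the isomerase of isopentenyl diphosphate, was at 338, 329 and 390.4 CPM in the 24-h controls, 299, 251 and 371 after 1 µg/cm2 and 214, 306 and 228 after 30 µg/cm2. All 3 libraries at 30 µg/cm2 lay below the controls, but the log2 fold-change of -0.50 (adjusted p = 0.0672, SE 0.161) was under the threshold, and without experiment 2 it was -0.74 (adjusted p = 6.36e-05). It was at 117, 111 and 133 CPM in the 7-d controls and 111, 112 and 110.1 after daily exposure, the controls differing by -1.55 (adjusted p = 2.76e-05, SE 0.165).

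FDPS, the farnesyl diphosphate synthase, was at 237, 292 and 260.2 CPM in the 24-h controls, 252, 293 and 272 after 1 µg/cm2 and 196, 335 and 198 after 30 µg/cm2. Treated and control libraries overlapped at 24 h, with -0.11 (adjusted p = 0.762, SE 0.176) at 30 µg/cm2 and -0.35 (adjusted p = 0.00287) without experiment 2. Its values were 104, 103 and 113 CPM in the 7-d controls and 101, 104 and 99.3 after daily exposure, and the 7-d controls were lower than the 24-h controls, at -1.30 (adjusted p = 0.000172, SE 0.179). PMVK, which adds the next phosphate to mevalonate phosphate, was at 29.7, 51.2 and 36.7 CPM in the 24-h controls, 24.5, 69.3 and 27.3 after 1 µg/cm2 and 24.1, 47.9 and 22.5 after 30 µg/cm2, with experiment 2 above the others in each condition. It was at 27.6, 28.0 and 25.2 CPM in the 7-d controls and 37.2, 34.5 and 33.5 after daily exposure, the single gene of the 34 higher in all pairs after daily exposure, with a log2 fold-change of 0.38 (adjusted p = 0.730, SE 0.363).

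In the branch from squalene to cholesterol, the largest response to 30 µg/cm2 was that of LSS (ENSG00000160285.14, chr21:46188141-46228824), the lanosterol synthase that closes the first sterol ring system. LSS was at 93.5, 62.1 and 80.5 CPM in the 24-h controls, 107, 44.7 and 89.5 after 1 µg/cm2 and 30.2, 33.7 and 25.6 after 30 µg/cm2. All 3 exposed libraries lay below all 3 controls, from 78.7 ± 15.8 to 29.8 ± 4.06 CPM (SD, n = 3), which is -1.40 (adjusted p = 0.00266, SE 0.247) on the log2 scale. It was -1.35 (adjusted p = 0.000370) with the block and -1.65 (adjusted p = 6.68e-09) without experiment 2, and LSS alone was called when only the compared libraries were fitted (background 2.23%). Relative to 1 µg/cm2, the log2 fold-change was -1.43 (adjusted p = 0.00282, SE 0.247), and -1.83 (adjusted p = 2.56e-09) without experiment 2. LSS was at 27.4, 26.0 and 26.4 CPM in the 7-d controls and 19.6, 20.7 and 20.5 after daily exposure, the 7-d controls lying below all 24-h controls with a log2 fold-change of -1.57 (adjusted p = 0.000485, SE 0.248).

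SQLE (ENSG00000104549.11, chr8:124998497-125022283), the squalene epoxidase that precedes LSS, was at 326, 297 and 343 CPM in the 24-h controls, 321, 233 and 356 after 1 µg/cm2 and 179, 217 and 188 after 30 µg/cm2. The exposed libraries of all 3 experiments were below the controls, with a log2 fold-change of -0.73 (adjusted p = 0.00629, SE 0.147), -0.72 (adjusted p = 0.00153) with the block and -0.88 (adjusted p = 1.53e-06) without experiment 2. Relative to 1 µg/cm2 it was -0.64 (adjusted p = 0.0135, SE 0.146), and -0.91 (adjusted p = 1.20e-06) without experiment 2. SQLE was at 129, 124 and 146 CPM in the 7-d controls and 111, 107 and 101 after daily exposure, and the controls differed by -1.27 (adjusted p = 5.23e-05, SE 0.148). After daily exposure all libraries were below the 7-d controls, at -0.32 (adjusted p = 0.403, SE 0.146), not past the threshold.

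FDFT1, the squalene synthase that commits the route to sterols, was at 630.4, 700.3 and 731 CPM in the 24-h controls, 612, 541 and 696 after 1 µg/cm2 and 454, 672 and 462 after 30 µg/cm2. It was at 209, 199 and 239.6 CPM in the 7-d controls and 156, 155 and 126 after daily exposure. The controls differed by -1.67 (adjusted p = 2.08e-05, SE 0.169), and daily exposure gave -0.57 (adjusted p = 0.176, SE 0.165) with no overlap of the groups. MSMO1, a sterol C4 demethylase component, was at 389, 398 and 426 CPM in the 24-h controls, 405, 308 and 485 after 1 µg/cm2 and 374, 418 and 386 after 30 µg/cm2, with overlap of the conditions. It was at 195, 185 and 228 CPM in the 7-d controls and 145, 138 and 111 after daily exposure. The exposed libraries lay below all 7-d controls, with a log2 fold-change of -0.63 (adjusted p = 0.124, SE 0.159) in the fit of all libraries and -0.63 (adjusted p = 0.0190) with the block. The 7-d controls were lower than the 24-h controls, at -0.998 (adjusted p = 0.000516, SE 0.159).

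NSDHL (ENSG00000147383.10, chrX:152830967-152869729), the dehydrogenase that works beside MSMO1, had the largest fall between the controls. It was at 178, 212 and 205 CPM in the 24-h controls, 175, 230.2 and 197 after 1 µg/cm2 and 113, 244 and 125 after 30 µg/cm2. In the second protocol it was at 51.3, 46.5 and 53.2 CPM in the 7-d controls and 43.2, 38.2 and 35.3 after daily exposure. The controls went from 198 ± 17.7 to 50.3 ± 3.43 CPM, with a log2 fold-change of -1.98 (adjusted p = 6.39e-05, SE 0.237). After 30 µg/cm2 experiments 1 and 3 were lower and experiment 2 was higher than the controls, with -0.30 (adjusted p = 0.476, SE 0.228) over all libraries and -0.70 (adjusted p = 8.58e-05) without experiment 2. HSD17B7, the reductase of the same demethylation step, was at 37.9, 40.5 and 41.0 CPM in the 24-h controls, 39.8, 33.9 and 43.8 after 1 µg/cm2 and 32.4, 40.7 and 30.4 after 30 µg/cm2. It was at 14.6, 16.4 and 18.4 CPM in the 7-d controls and 17.5, 18.1 and 17.5 after daily exposure, with -1.27 (adjusted p = 3.37e-05, SE 0.139) between the controls and overlap of exposed and control cells in both protocols.

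EBP, the sterol isomerase, was at 213, 312 and 268 CPM in the 24-h controls, 221, 370.0 and 254 after 1 µg/cm2 and 112, 273 and 123 after 30 µg/cm2. The libraries of experiments 1 and 3 at 30 µg/cm2 were below all controls and that of experiment 2 was among them, with -0.64 (adjusted p = 0.189, SE 0.287) over all libraries, -0.74 (adjusted p = 0.00185) with the block and -1.05 (adjusted p = 2.29e-06) without experiment 2. EBP was at 118, 111 and 125 CPM in the 7-d controls and 110.1, 101 and 95.2 after daily exposure, the controls differing by -1.17 (adjusted p = 0.00854, SE 0.290). TM7SF2, a sterol C14 reductase, was at 73.9, 144 and 78.3 CPM in the 24-h controls, 78.8, 200.2 and 77.4 after 1 µg/cm2 and 49.5, 127 and 53.5 after 30 µg/cm2, with experiment 2 above the others in each condition. It was at 42.5, 39.5 and 39.2 CPM in the 7-d controls and 48.3, 45.1 and 35.0 after daily exposure, and the controls differed by -1.29 (adjusted p = 0.0312, SE 0.413). That call was lost without the 24-h control of experiment 2 or any 7-d control, at -1.32 to -0.94. At 30 µg/cm2 the log2 fold-change of TM7SF2 was -0.37 (adjusted p = 0.654, SE 0.406), and -0.58 (adjusted p = 0.000985) without experiment 2. DHCR7, the reductase of the last step to cholesterol, was at 295, 287 and 315 CPM in the 24-h controls, 323, 292 and 321 after 1 µg/cm2 and 229, 342 and 241 after 30 µg/cm2. It was at 129, 122 and 137 CPM in the 7-d controls and 105, 100.1 and 74.7 after daily exposure, with -1.21 (adjusted p = 0.000143, SE 0.161) between the controls and -0.47 (adjusted p = 0.244, SE 0.160) after daily exposure, all exposed libraries being below the 7-d controls. At 30 µg/cm2 the log2 fold-change of DHCR7 was -0.14 (adjusted p = 0.657, SE 0.159), and -0.39 (adjusted p = 0.0180) without experiment 2.

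Of the other genes of this branch, SC5D, the sterol C5 desaturase, ranged from 48.1 to 91.6 CPM at 24 h, with -0.56 (adjusted p = 0.0651, SE 0.216) between the controls. It was at 53.7, 50.8 and 60.0 CPM in the 7-d controls and 42.4, 39.1 and 47.5 after daily exposure, with no overlap of the groups. CYP51A1, the lanosterol demethylase, was at 22.0, 6.73 and 19.5 CPM in the 24-h controls, 23.4, 5.35 and 19.0 after 1 µg/cm2 and 20.6, 7.25 and 19.1 after 30 µg/cm2, with experiment 2 lowest in every condition. It was at 11.1, 10.2 and 13.3 CPM in the 7-d controls and 7.65, 5.83 and 7.61 after daily exposure. Daily exposure gave -0.71 (adjusted p = 0.631, SE 0.510) in the fit of all libraries and -0.71 (adjusted p = 0.00592) with the block. CYP51A1 shares 78.8% of its exon bases with LRRD1 on the same strand, its counts over the 15 libraries came to 5713, and its level is uncertain.

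Among the sensing genes, INSIG1 (ENSG00000186480.12, chr7:155297776-155310235), itself induced by SREBP, was at 421, 452 and 445 CPM in the 24-h controls, 565, 361 and 637 after 1 µg/cm2 and 264, 391 and 288 after 30 µg/cm2. The cells exposed to 30 µg/cm2 were below the controls in all 3 experiments, at -0.48 (adjusted p = 0.156, SE 0.200), which did not pass the threshold. Without experiment 2 the log2 fold-change was -0.66 (adjusted p = 0.000415). Relative to 1 µg/cm2, where experiments 1 and 3 were above the controls, it was -0.73 (adjusted p = 0.0343, SE 0.200), past the threshold although 1 library of each dose overlapped, and -1.15 (adjusted p = 2.10e-06) without experiment 2. INSIG1 was at 136, 129.8 and 161 CPM in the 7-d controls and 96.2, 92.0 and 74.2 after daily exposure. The 7-d controls were lower than the 24-h controls, at -1.63 (adjusted p = 9.21e-05, SE 0.204), and daily exposure gave -0.70 (adjusted p = 0.172, SE 0.201) in the fit of all libraries and -0.70 (adjusted p = 0.0413) with the block. INSIG2, the anchor that does not depend on SREBP, was at 38.1, 44.8 and 40.5 CPM in the 24-h controls, 35.2, 41.7 and 38.0 after 1 µg/cm2 and 29.7, 38.0 and 28.5 after 30 µg/cm2, the exposed cells at 30 µg/cm2 lying just below the controls with -0.36 (adjusted p = 0.108, SE 0.131), and -0.45 (adjusted p = 0.00219) without experiment 2. It was at 36.0, 36.5 and 42.0 CPM in the 7-d controls and 39.6, 38.2 and 43.5 after daily exposure, with -0.11 (adjusted p = 0.581, SE 0.131) between the controls, whose libraries overlapped.

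SREBF1 was at 144, 161 and 142 CPM in the 24-h controls, 164, 161 and 146 after 1 µg/cm2 and 125, 161 and 122 after 30 µg/cm2. The conditions overlapped at 24 h. It was at 75.7, 70.4 and 70.8 CPM in the 7-d controls and 70.5, 67.7 and 61.1 after daily exposure, and the 7-d controls were lower, at -1.04 (adjusted p = 5.43e-05, SE 0.122). SREBF2 was at 399.8, 419 and 394 CPM in the 24-h controls, 456, 367 and 424 after 1 µg/cm2 and 341, 354 and 337 after 30 µg/cm2. The values at 30 µg/cm2 were below all controls by a small amount, -0.23 (adjusted p = 0.189, SE 0.104), and experiment 2 was close to the others, at -0.23, -0.25 and -0.23 on the log2 scale in experiments 1, 2 and 3. Without experiment 2 it was -0.24 (adjusted p = 0.0216). SREBF2 was at 453, 434 and 448 CPM in the 7-d controls and 349, 341 and 314 after daily exposure, the exposed cells being below the controls in all pairs, at -0.41 (adjusted p = 0.126, SE 0.105). Between the controls SREBF2 differed by 0.14 (adjusted p = 0.351, SE 0.104), while most of the genes that SREBP2 is known to drive were lower in the 7-d controls. STARD4, a sterol carrier, ranged from 84.4 to 198 CPM at 24 h. It was at 169, 167 and 184 CPM in the 7-d controls and 119, 129 and 127 after daily exposure, with -0.47 (adjusted p = 0.540, SE 0.277) after daily exposure.

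In fatty acid synthesis, FADS2 and ELOVL6 were lower after 30 µg/cm2. FADS2 (ENSG00000134824.13, chr11:61792980-61867354), the delta-6 desaturase of polyunsaturated fatty acids, was at 838, 1164 and 918 CPM in the 24-h controls, 903, 1030.3 and 917 after 1 µg/cm2 and 333, 692 and 349.5 after 30 µg/cm2. All exposed libraries were below the controls, with a log2 fold-change of -1.09 (adjusted p = 0.00954, SE 0.236), -1.14 (adjusted p = 0.000152) with the block and -1.38 (adjusted p = 4.69e-08) without experiment 2, and of -1.05 (adjusted p = 0.0120, SE 0.236) relative to 1 µg/cm2, which was -1.44 (adjusted p = 3.20e-08) without experiment 2. The call against the controls was lost without the exposed library of experiment 1 or of experiment 3, with -0.92 and -0.93. It was at 313, 297 and 321 CPM in the 7-d controls and 237, 219 and 183 after daily exposure. The controls differed by -1.65 (adjusted p = 0.000261, SE 0.239), and daily exposure gave -0.54 (adjusted p = 0.377, SE 0.234) with no overlap of the groups. Its neighbour FADS1, the delta-5 desaturase, shares 490 exon bases with FADS2 on the other strand. FADS1 was at 615, 765 and 584 CPM in the 24-h controls, 702, 599 and 712 after 1 µg/cm2 and 447, 547 and 461 after 30 µg/cm2. The exposed cells at 30 µg/cm2 were below all controls. The log2 fold-change of -0.43 (adjusted p = 0.0486, SE 0.129) passed the p-value threshold and not that on fold. Without experiment 2 it was -0.42 (adjusted p = 0.000415). FADS1 was at 565, 539 and 569 CPM in the 7-d controls and 460, 444 and 430 after daily exposure, with no overlap of the groups.

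ELOVL6 (ENSG00000170522.9, chr4:110045846-110199199), the elongase of palmitate, was at 213, 179.8 and 214 CPM in the 24-h controls, 217, 136 and 232 after 1 µg/cm2 and 127, 141 and 130.5 after 30 µg/cm2. The 3 libraries at 30 µg/cm2 were below all controls, with a log2 fold-change of -0.61 (adjusted p = 0.0300, SE 0.164), close to the threshold of 0.6. With the block it was -0.59 (adjusted p = 0.00554), no longer called, and the call was also lost without experiment 1 or 3 of either condition, at -0.58 to -0.60. Without experiment 2 it was -0.75 (adjusted p = 2.05e-06). ELOVL6 was at 66.2, 64.1 and 70.6 CPM in the 7-d controls and 62.6, 65.2 and 70.2 after daily exposure, with -1.60 (adjusted p = 2.56e-05, SE 0.167) between the controls and overlap of the groups after daily exposure.

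FASN was at 1768, 955 and 1553 CPM in the 24-h controls, 1975, 775 and 1611 after 1 µg/cm2 and 1241, 1264 and 1182 after 30 µg/cm2. Exposed and control cells overlapped at 24 h, with -0.21 (adjusted p = 0.714, SE 0.282) at 30 µg/cm2 and -0.47 (adjusted p = 0.00969) without experiment 2. It was at 416, 411 and 424 CPM in the 7-d controls and 270.5, 267 and 196 after daily exposure. The 7-d controls were lower than the 24-h controls, at -1.77 (adjusted p = 0.000612, SE 0.290). All cells exposed daily were below the 7-d controls, at -0.77 (adjusted p = 0.291, SE 0.284) in the fit of all libraries and -0.78 (adjusted p = 0.0291) with the block. SCD was at 1760.3, 954 and 1651 CPM in the 24-h controls, 1886, 744 and 1877 after 1 µg/cm2 and 1469.6, 1213 and 1526 after 30 µg/cm2, with overlap of the conditions. It was at 646, 637 and 698 CPM in the 7-d controls and 438, 427 and 355 after daily exposure, and the values were -1.14 (adjusted p = 0.0113, SE 0.298) between the controls and, after daily exposure, -0.70 (adjusted p = 0.370, SE 0.296) in the fit of all libraries and -0.70 (adjusted p = 0.0226) with the block.

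ACACA, the acetyl-CoA carboxylase that makes malonyl-CoA, was at 83.5, 21.7 and 56.1 CPM in the 24-h controls, 95.2, 11.8 and 76.6 after 1 µg/cm2 and 72.9, 26.2 and 69.6 after 30 µg/cm2, with experiment 2 far below the others in each condition. It was at 42.6, 46.2 and 42.1 CPM in the 7-d controls and 21.3, 22.0 and 25.7 after daily exposure. Daily exposure gave -0.93 (adjusted p = 0.585, SE 0.595) in the fit of all libraries, whose SE includes the spread of 24-h experiment 2, and -0.93 (adjusted p = 0.0193) with the block. ACLY, which makes cytosolic acetyl-CoA from citrate, was at 612, 317 and 579 CPM in the 24-h controls, 622, 239.7 and 618 after 1 µg/cm2 and 471, 363 and 465 after 30 µg/cm2. It was at 256, 255 and 255 CPM in the 7-d controls and 210.3, 213 and 187 after daily exposure, with -0.98 (adjusted p = 0.0269, SE 0.304) between the controls, and the call was lost without either 24-h control of experiment 1 or 3 or any 7-d control, at -0.98 to -0.85. ACSS2, which makes acetyl-CoA from acetate, was at 277, 303 and 299.8 CPM in the 24-h controls, 275, 239 and 282 after 1 µg/cm2 and 191, 312 and 196 after 30 µg/cm2. It was at 136, 130.5 and 142 CPM in the 7-d controls and 108, 113 and 101 after daily exposure, with -1.11 (adjusted p = 0.000296, SE 0.163) between the controls and -0.35 (adjusted p = 0.417, SE 0.162) after daily exposure. At 30 µg/cm2 the log2 fold-change of ACSS2 was -0.33 (adjusted p = 0.235, SE 0.161), and -0.59 (adjusted p = 3.05e-05) without experiment 2.

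Among the LXR targets, ABCG1 was higher after 30 µg/cm2 and ABCA1 was higher in experiments 1 and 3. ABCA1 (ENSG00000165029.15, chr9:104781002-104928237), which loads cholesterol onto apolipoproteins, was at 8.79, 6.22 and 6.13 CPM in the 24-h controls, 12.7, 4.36 and 12.5 after 1 µg/cm2 and 25.0, 5.76 and 22.1 after 30 µg/cm2. The exposed libraries of experiments 1 and 3 were above all controls and that of experiment 2 was below them. The log2 fold-change was 1.32 (adjusted p = 0.0818, SE 0.448), past the threshold with the block, 1.13 (adjusted p = 0.00754), and without experiment 2, 1.64 (adjusted p = 3.03e-07). After 1 µg/cm2 it was 0.49 (adjusted p = 1.00, SE 0.445) over all libraries and 0.76 (adjusted p = 0.00588) without experiment 2. ABCA1 was at 5.62, 5.43 and 5.68 CPM in the 7-d controls and 3.01, 3.03 and 2.68 after daily exposure, where all cells exposed daily were below the controls, with a log2 fold-change of -0.94 (adjusted p = 0.450, SE 0.460).

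ABCG1 (ENSG00000160179.18, chr21:42199689-42297244), the pump that exports sterols to high-density lipoprotein, was at 1.69, 1.08 and 1.59 CPM in the 24-h controls, 2.11, 1.83 and 2.42 after 1 µg/cm2 and 3.42, 1.66 and 3.83 after 30 µg/cm2. The exposed libraries were above all controls in experiments 1 and 3, and in experiment 2 the exposed library was above its own control and below 1 other. The log2 fold-change was 1.01 (adjusted p = 0.0411, SE 0.291), 0.99 (adjusted p = 0.00273) with the block and 1.12 (adjusted p = 0.000697) without experiment 2. The call was lost when any 1 of the 24-h control libraries, or the library of experiment 1 or 3 at 30 µg/cm2, was left out, with log2 fold-changes of 0.79 to 1.12. After 1 µg/cm2 it was above the controls in all pairs, as were 2.31% of all genes, at 0.54 (adjusted p = 1.00, SE 0.293), and 0.47 (adjusted p = 0.255) without experiment 2. ABCG1 was at 3.65, 2.99 and 3.04 CPM in the 7-d controls and 3.73, 3.06 and 2.84 after daily exposure. It was higher in the 7-d than in the 24-h controls, at 1.14 (adjusted p = 0.00986, SE 0.290), 0.95 (adjusted p = 0.000773) without experiment 2, and overlapped between exposed and control cells of the second protocol. MYLIP, a ubiquitin ligase that targets lipoprotein receptors, was at 18.1, 16.7 and 14.3 CPM in the 24-h controls, 17.8, 14.4 and 20.3 after 1 µg/cm2 and 18.1, 13.6 and 18.1 after 30 µg/cm2, and at 19.2, 20.4 and 22.2 CPM in the 7-d controls and 16.9, 14.9 and 16.1 after daily exposure. Its log2 fold-change was 0.02 (adjusted p = 0.965, SE 0.158) at 30 µg/cm2, 0.14 (adjusted p = 0.393) without experiment 2, and -0.37 (adjusted p = 0.376, SE 0.157) after daily exposure, with all cells exposed daily below the 7-d controls.

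**Figure D3:**
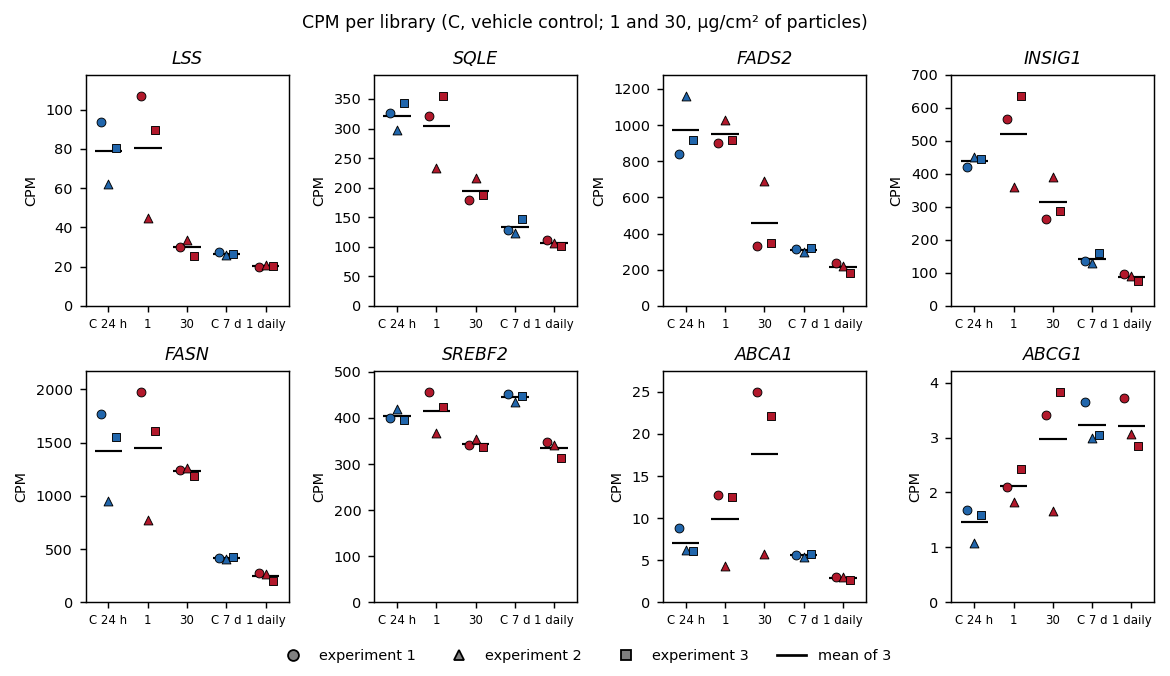
CPM of 8 genes in each of the 15 libraries (points, with the shape giving the experiment, and the mean of 3 as a line), with the y axis starting at 0. LSS, SQLE and FADS2 are lower at 30 µg/cm2 in all 3 experiments, and ABCA1 and ABCG1 are higher in experiments 1 and 3. Relative to the 24-h controls, the synthesis genes are lower in both 7-d conditions, and SREBF2 only after daily exposure.

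The experiments differed in how many genes were lower after 30 µg/cm2 than in the control of the same experiment. These were 31 of 34 in experiment 1 (background 49.8%), 21 in experiment 2 (background 46.3%) and 29 in experiment 3 (background 49.6%), with median log2 differences of -0.42, -0.08 and -0.41. The genes lower in all 3 experiments numbered 18 (background 23.8%), and ABCG1 alone was higher in all 3 (background 27.3%). For LSS the differences were -1.63, -0.88 and -1.65, and for FADS2 they were -1.33, -0.75 and -1.39, smallest in experiment 2 for both. After daily exposure 29, 26 and 32 genes were lower in experiments 1, 2 and 3 (background 50.0%, 49.0% and 50.8%), with medians of -0.29, -0.28 and -0.51, and 26 were lower in all 3 (background 30.8%). For MSMO1 the differences after daily exposure were -0.43, -0.42 and -1.04, largest in experiment 3, as was the case for FASN at -0.62, -0.62 and -1.11. The exposed library of experiment 3 was also the one that stood apart from the others exposed daily, as given above.

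**Figure D4:**
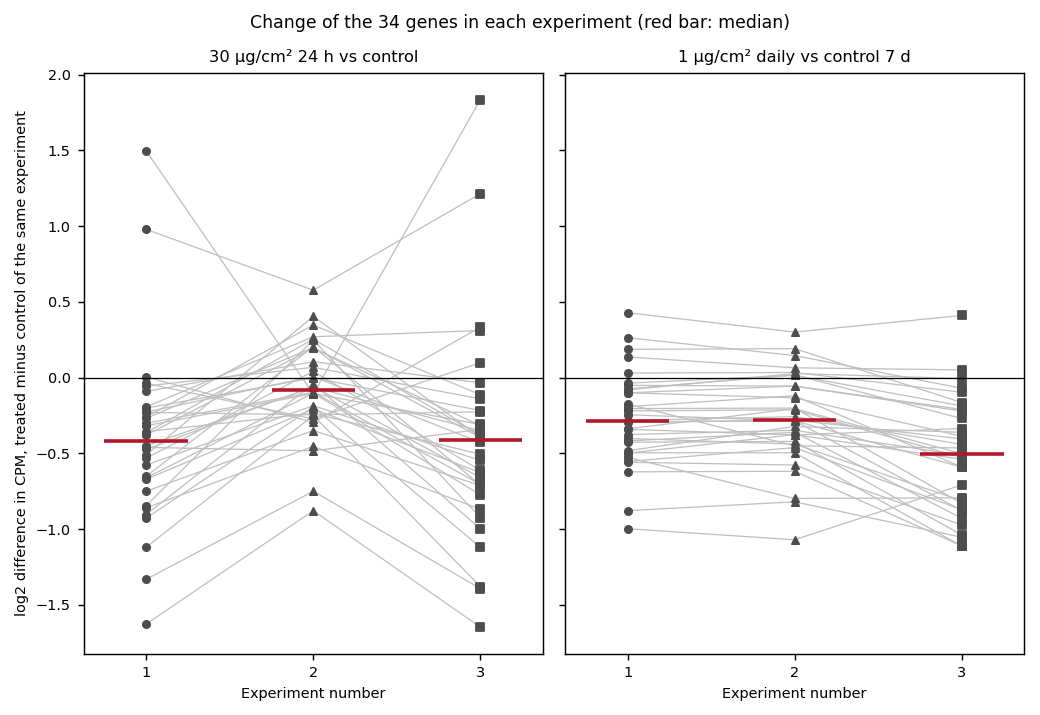
Log2 difference in CPM between exposed and control cells of the same experiment for the 34 genes (points, with lines joining the same gene and a red bar at the median), after 30 µg/cm2 for 24 h and after daily 1 µg/cm2. The medians are -0.42, -0.08 and -0.41 at 30 µg/cm2 and -0.29, -0.28 and -0.51 after daily exposure.

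The direct comparison of the single doses asked whether the response depended on concentration, with the libraries at 30 µg/cm2 shared with the comparison above. Of the 34 genes, 4 were lower at 30 than at 1 µg/cm2, namely LSS, SQLE, FADS2 and INSIG1, and 0 were higher (background 7.84%, 4.22% lower and 3.62% higher). The median log2 fold-change was -0.23. All 9 pairs were lower for 5 genes (background 10.0%), 5 were called by DESeq2 (background 10.1%), 8 with the block (background 15.6%) and 15 without experiment 2 (background 17.3%). Without the library of experiment 2 at 30 µg/cm2 alone, 13 genes were called (background 15.01%), and without that of experiment 1 (background 4.02%) or of experiment 3 (background 3.94%) at this dose, 1 was. Without the library of experiment 3 at 1 µg/cm2, 2 were (background 5.85%).

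Whether daily 1 µg/cm2 acted differently from a single dose was tested as the difference of the responses. Against a single 1 µg/cm2, 0 genes were called (background 0%) and 5 had an unadjusted p-value under 0.05 (background 7.07%), DESeq2 called 0 (background 0.426%), the block called 0 (background 1.03%), and the median difference was -0.39 on the log2 scale. Without 24-h experiment 2, 11 were called (background 9.84%), of which 10 were lower and PMVK was higher after daily exposure. These included INSIG1 at -1.18 (adjusted p = 0.000225), ACACA at -1.23 (adjusted p = 0.000589) and ABCA1 at -1.70 (adjusted p = 0.000102). Against a single 30 µg/cm2, 0 genes were called (background 1.82%), 6 had an unadjusted p-value under 0.05 (background 15.5%) and DESeq2 called 1, ABCA1 (background 4.47%). ABCA1 differed by -2.26 (adjusted p = 0.0978, SE 0.642), and by -2.07 (adjusted p = 0.00386) with the block, which called 6 genes (background 14.6%): ABCA1, ABCG1, CYP51A1 and ACACA were lower and LSS and PMVK higher in the response to daily exposure. Without experiment 2, 13 were called (background 21.6%).

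A list of 65 other genes of these pathways, covering the SREBP machinery, sterol trafficking, lipid synthesis, LXR partners and oxysterol enzymes, left 63 to test. After 30 µg/cm2, 1 was higher and 3 were lower (background 8.07%). The higher was OSBPL6, an oxysterol-binding protein of lipid transfer, from 20.5 ± 2.499 to 49.2 ± 11.3 CPM (SD, n = 3), or 1.26 (adjusted p = 0.000253, SE 0.159) on the log2 scale. The lower were SCD5, the second stearoyl-CoA desaturase, at -0.95 (adjusted p = 0.00959, SE 0.207), LPIN1, a phosphatidate phosphatase, at -0.76 (adjusted p = 0.0142, SE 0.176), and LIPA, the lysosomal acid lipase that frees cholesterol, at -0.62 (adjusted p = 0.0209, SE 0.155). The block called 9 of the 63 (background 15.2%), and 15 were called without experiment 2 (background 19.1%), where OSBPL6 was at 1.36 (adjusted p = 6.14e-08), SCD5 at -0.97 (adjusted p = 9.37e-07), LPIN1 at -0.76 (adjusted p = 3.53e-06) and LIPA at -0.83 (adjusted p = 2.02e-06). After 1 µg/cm2, 0 were called by edgeR, with the block or without experiment 2 (background 0.0625%, 0.420% and 2.11%). Between the single doses 3 were higher and 4 lower at 30 µg/cm2 (background 7.84%), the largest being ACSL5, an acyl-CoA synthetase, at -1.63 (adjusted p = 0.0110, SE 0.358), and OSBPL6 at 1.42 (adjusted p = 0.000179, SE 0.160). The block called 9 (background 15.6%) and the fit without experiment 2 called 12 (background 17.3%), with ACSL5 at -2.04 (adjusted p = 6.02e-07) and OSBPL6 at 1.55 (adjusted p = 1.68e-08). Between the controls 8 were higher and 8 lower in the 7-d cells (background 11.1% and 10.8%), and 22 were called without experiment 2 (background 31.0%), and the medians over all libraries were -0.14 for the 63 and -1.19 for the 34 genes. Among the largest were ELOVL7, an elongase, at 1.57 (adjusted p = 0.000372, SE 0.239), PNPLA3, a lipase of lipid droplets, at -1.43 (adjusted p = 0.0437, SE 0.494), and ERG28, a scaffold of the sterol demethylation complex, at -1.27 (adjusted p = 0.00177, SE 0.244). CYP46A1, which hydroxylates cholesterol, was also called higher, from 0.0772 ± 0.0715 to 0.541 ± 0.365 CPM, the mean of the 24-h controls being under the floor, so no fold is given. The response to daily exposure differed from that to 30 µg/cm2 for OSBPL6, by -1.24 (adjusted p = 0.0118, SE 0.222) (background 1.82%), and by -1.33 (adjusted p = 2.87e-06) without experiment 2, where 13 were called (background 21.6%), while the block called 6 (background 14.6%). From the response to a single 1 µg/cm2 it differed for 0 by edgeR (background 0%), for 2 with the block (background 1.03%) and for 6 without experiment 2 (background 9.84%).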

How the data were processed

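RNA selected by poly-A was sequenced as single-end 50-base reads, which the authors mapped to GRCh38 with STAR 2.5.3 and assigned to genes with featureCounts, and the counts per gene were deposited without normalization, beside the exon length of each gene. The submitters' notes name hg19 as the build, but the gene positions in the table are those of GRCh38. The annotation, strand and options of counting are not given in the sources used here, so overlapping genes are marked as uncertain.

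Counts were scaled by the trimmed mean of M-values (TMM) and genes filtered with filterByExpr in edgeR 4.0.16 (R 4.3.3), which kept 17599 of 58219. Of the genes in the table, 57437 were named from a GENCODE annotation. One mean for each of 5 conditions was fitted to all 15 libraries in a quasi-likelihood model, and p-values were adjusted by Benjamini-Hochberg over all genes. SE was obtained as the log2 fold-change over the root of F. Differences within an experiment are of log2(CPM + 0.1). Each background is the share of the 17599 genes (17950 without 24-h experiment 2, and 16117 to 18100 in the other reduced fits) that met the same rule. CPM values were scaled with TMM, and the floor by the total of each library. Nothing in the labels places the experiments in separate donors, so p-values measure the spread between experiments in 1 cell line.

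The sample records give the last number of a sample name as the experimental batch, and cells of the same number were taken here as handled together. Deviations from the group means correlated at 0.211 to 0.732 between libraries of the same number at 24 h and at 0.129 to 0.192 in the 7-d protocol, and averaged -0.235 and -0.082 between different numbers. The experiments of both protocols were blocked separately.

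The 34 genes, the list of 65 and the comparisons were chosen with earlier results of these data known. The result of the list of 65 after daily exposure is not reported here. Genes called in any comparison of the fit of all libraries, the SREBF, INSIG and LXR target genes are given in every library, and the rest by ranges or values. Alternatives were other scalings and filters, the adjusted p-value alone, the block, fits of the compared libraries alone, DESeq2 1.42.0, and leaving out each library or 24-h experiment 2. The current mode of edgeR, and the block without experiment 2, were chosen after seeing the data. The fit was tested on simulated data. Promoter windows come from RefSeq (GRCh38.p14).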

Additional observations from a re-analysis of the deposited data

How the results depend on the processing

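The number of the 34 genes called kept within 1.5 times the value reported under other scalings, filters and edgeR's current mode, with 1 exception below, and the median log2 fold-change kept its sign under all alternatives for 30 µg/cm2 (-0.46 to -0.22), daily exposure (-0.39 to -0.31), 30 against 1 µg/cm2 (-0.47 to -0.19) and the controls (-1.28 to -1.14). That for 1 µg/cm2 ran from -0.04 to 0.10 and that for the daily response against 30 µg/cm2 from -0.11 to 0.19. With the replicate block, which pairs cells of one experiment, the calls went from 5 to 8 at 30 µg/cm2, from 0 to 6 after daily exposure, from 4 to 8 for 30 against 1 µg/cm2 and from 0 to 6 for the daily response against that to 30 µg/cm2, and stayed at 0 for 1 µg/cm2 and for the daily against the single 1 µg/cm2 response. Fitting only the compared libraries gave 1 (background 2.23%), 8 (background 6.23%), 0 and 2 in the same order. Without 24-h experiment 2 the calls were 13 at 30 µg/cm2, 1 at 1 µg/cm2, 15 for 30 against 1 µg/cm2, and 11 and 13 for the daily response against the single 1 and 30 µg/cm2 responses, and the same counts, 13, 1, 15, 11 and 13, were given with the replicate block added. DESeq2 called 2 after daily exposure and 1 for the daily response against that to 30 µg/cm2, where omitting the filter on low counts also gave 1. Leaving out 1 library at a time gave 2 to 14 calls at 30 µg/cm2, 1 to 13 for 30 against 1 µg/cm2, 22 to 24 for the controls, 0 to 6 for the daily response against that to 30 µg/cm2, and 0 to 0 for the other comparisons. Where no share of all genes is given here or above, a count is not read as a result about the 34 genes. The controls of both protocols are different experiments, so no paired analysis of them was possible. Genes called in the fit of all libraries, among the 34 and the list of 65, kept their direction under every alternative run. Among the 34, the direction of genes not called did change under at least 1 alternative, for 7 genes at 30 µg/cm2, 24 at 1 µg/cm2, 3 after daily exposure, 11 for 30 against 1 µg/cm2, 2 for the controls, and 4 and 9 for the daily response against the single 1 and 30 µg/cm2 responses, the largest of these estimates being 0.37 on the log2 scale in either direction. The causes were not tested. Of the 34 genes ABCG1 had the lowest mean CPM, at 1.08 to 3.83, and counting error weighs most on its values.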
